A study of Mus musculus with 6 samples.

Results

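Microfibrils are the extracellular filaments on which elastic fibres are built. The genes described here encode their parts, proteins that attach to them, and elastin (Eln), which is laid down on them. These genes are the fibrillins Fbn1 and Fbn2, the microfibril-associated proteins Mfap2, Mfap4 and Mfap5, the latent TGF-beta binding proteins Ltbp1, Ltbp2, Ltbp3 and Ltbp4, and Eln. They were taken as the probes whose target name on the array, ignoring case, was FBN1, FBN2, MFAP2, MFAP4, MFAP5, LTBP1, LTBP2, LTBP3, LTBP4 or ELN, which gave 25 of the 45281 probes. RNA was measured in 6 cultures of primary embryonic fibroblasts from C57BL/6 mice, 3 from Asciz+/+ (wild-type) embryos and 3 from Asciz-/- (knockout) embryos, isolated at embryonic day 12.5 and passaged once in serum-containing medium. Asciz, now called Atmin, encodes a zinc-finger transcription factor. The knockout is that of the whole embryo, and the labels do not say which part of the gene was removed. Each culture was hybridised to 1 bead array, and values below are background-corrected, normalized log2 intensities unless raw brightness is named. The set was chosen by the knockout against wild-type differences of these arrays, above all those of Mfap5 and Ltbp2, so that these differences are a description and carry no test.

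Fibrillin molecules assemble head to tail into beaded microfibrils, which bear load by themselves and, in elastic tissues, serve as the scaffold on which tropoelastin is laid down and crosslinked. The latent TGF-beta binding proteins resemble fibrillins in their repeated domains and attach to the same fibres. All of them except LTBP2 can carry TGF-beta in its latent, inactive form, and so hold the growth factor in the matrix until it is released. Embryonic fibroblasts secrete and assemble these fibres in culture.

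Each array had 17580 to 18794 detected probes, and the median raw intensity per array lay between 88.7 and 97.9. Atmin itself stood at 8.78 ± 0.08 (mean ± SD, n = 3) with its gene intact and at 6.79 ± 0.27 (n = 3) without it (adjusted p = 0.00896 by limma, over the threshold of 0.05 without wild-type replicate 1, 2 or 3), and its known target Dynll1 at 13.13 ± 0.07 and 11.24 ± 0.02 (n = 3 for both; adjusted p = 0.00181 by limma). Fibroblast genes were present, with 11 of 12 listed markers tested, among them Col1a1 and Vim, and Postn not detected. Knockout replicate 3 stood apart from the rest, with a mean correlation across genes of 0.979 to the other arrays against 0.985 to 0.989 for the other 5. Xist was detected on 1 array alone, wild-type replicate 1. Of the 10 genes, 9 had a probe detected on at least 3 arrays. Fbn2, the fibrillin that predominates in embryonic tissue, had a single probe, not well above background on the 6 arrays. Of the 25 probes 19 were detected on at least 3 arrays, and where a gene had several, its brightest stands for it. A probe of Eln under an older target name was not part of the set, and was detected on 1 array.

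The 9 measured genes fell on both sides of 0, 5 of them higher and 4 lower in the knockout cultures, with a median difference of 0.04 on the log2 scale beside -0.01 over all 10700 genes tested. None of the 9 passed an adjusted p of 0.05 by limma, beside 0.0467% of all genes (5 genes; 0.028% higher and 0.0187% lower in the knockout), and 4 had an unadjusted p under 0.05, beside 7.98%. For 4 of the 9 the knockout and wild-type values did not overlap, beside 14.5% of all genes: Mfap5 lay higher (knockout higher in 6.7% of all genes), and Ltbp2, Ltbp3 and Ltbp4 lay lower (knockout lower in 7.83%). As the set was chosen on this contrast, nothing is read from these shares. The other 5 genes overlapped, and 3 of them were the genes of the set that varied most within a genotype.

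**Figure D1:**
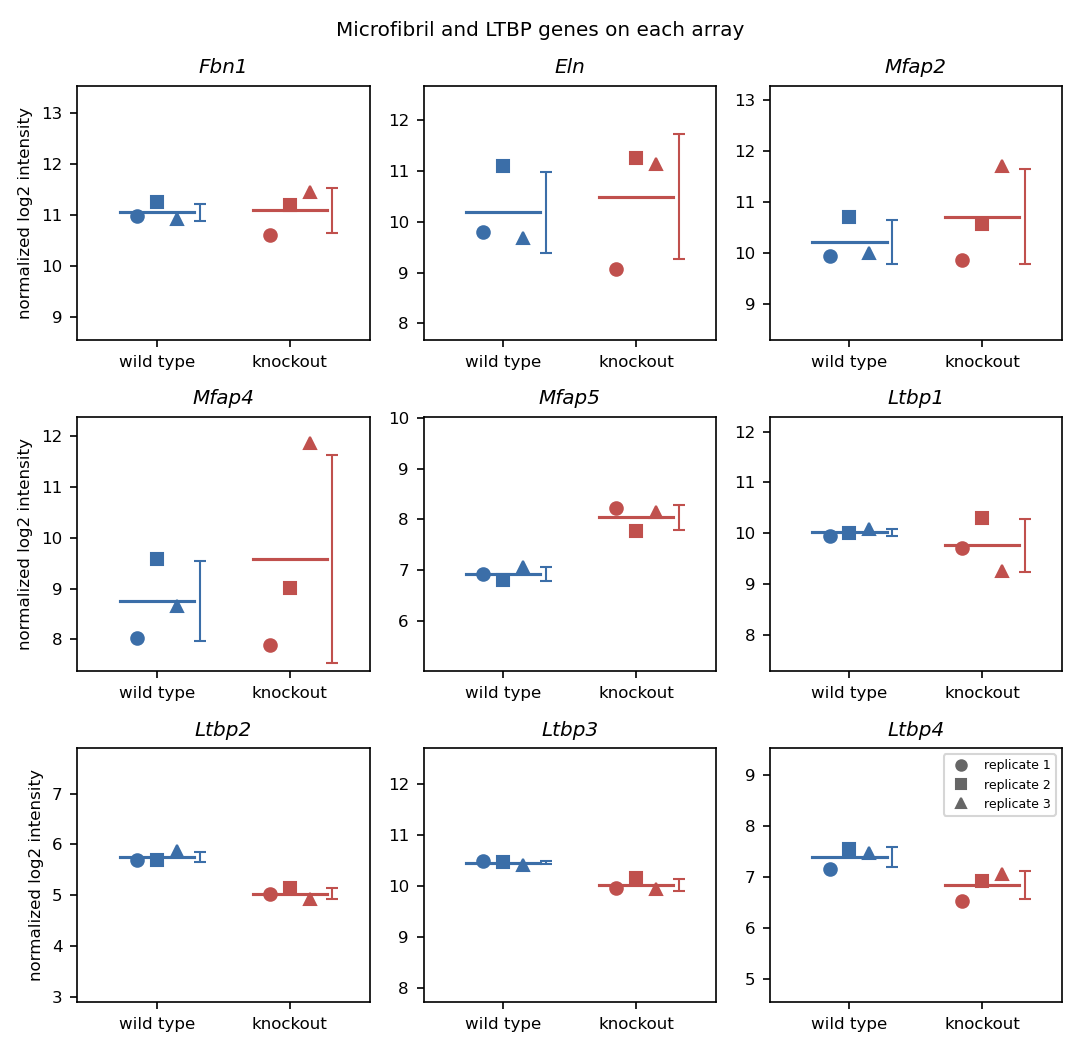
Normalized log2 intensity of the brightest probe of each of the 9 measured genes on the 6 arrays (vertical axis, the same 5-unit span in each panel), with wild-type cultures in blue and knockout cultures in red. Symbols mark the replicate number, horizontal lines the mean of 3 cultures and bars the SD. Mfap5 separates upward and Ltbp2, Ltbp3 and Ltbp4 downward, while Mfap4 spans from 7.89 to 11.85 within the knockout cultures.

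Fbn1, the main structural fibrillin of postnatal tissue and the gene mutated in Marfan syndrome, gave overlapping readings in the groups. Its brightest probe read 10.99, 11.25 and 10.93 in wild-type replicates 1, 2 and 3, and 10.61, 11.20 and 11.46 in knockout replicates 1, 2 and 3. The knockout values thus enclosed the wild-type values, with the lowest and the highest reading both among the knockouts. The difference was 0.04 (SE 0.22, 95% confidence interval -0.48 to 0.55). A second Fbn1 probe gave 0.01, and another, near background and detected on 2 wild-type arrays and 1 knockout array, gave -0.23.

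Eln encodes tropoelastin, the monomer of the elastic core that is laid on the microfibrils. It read 9.79, 11.10 and 9.67 in wild-type replicates 1 to 3 and 9.08, 11.26 and 11.14 in knockout replicates 1 to 3. The cultures split into a high and a low set that cut across genotype: wild-type replicate 2 and knockout replicates 2 and 3 were high, and the remaining 3 cultures were low. The difference of 0.31 (SE 0.62, 95% confidence interval -1.14 to 1.75) was smaller than the SD within either genotype, 0.79 for the wild-type and 1.23 for the knockout cultures (n = 3 for both). In raw brightness the lowest and highest Eln readings were 682 and 2258 units, both in knockout cultures, and the former came from knockout replicate 1.

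Mfap2 and Mfap5 encode the paired small glycoproteins that bind fibrillin directly, and Mfap5 also carries an integrin-binding motif. They did not run together. Mfap5 read 6.93, 6.80 and 7.07 in wild-type replicates 1 to 3 and 8.23, 7.77 and 8.15 in knockout replicates 1 to 3. Every knockout culture lay above every wild-type culture, and the lowest knockout value stood 0.69 above the highest wild-type value. The difference was 1.11 (SE 0.15, 95% confidence interval 0.75 to 1.47), or 2.16-fold. In raw brightness the same probe gave 231, 163 and 228 units in wild-type replicates 1 to 3 and 408, 253 and 278 in knockout replicates 1 to 3, also without overlap. This was the only Mfap5 probe, so no second probe bears on it. The Mfap5 difference was larger in size than that of 99.6% of all genes, a rank that follows from how the set was chosen. The SD of Mfap5 within genotypes, 0.20, exceeded that of 56.4% of genes.

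Mfap2 read 9.95, 10.71 and 9.99 in wild-type replicates 1 to 3 and 9.85, 10.57 and 11.71 in knockout replicates 1 to 3. Knockout replicate 3 was the highest and the other 2 knockout cultures lay within or just below the wild-type range. The difference of 0.49 (SE 0.44, 95% confidence interval -0.54 to 1.53) became -0.01 without knockout replicate 3. All 3 Mfap2 probes were highest on that array, and their differences were 0.49, 0.57 and 0.64.

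Mfap4, a fibrinogen-domain glycoprotein that binds elastin, fibrillin and collagen, varied most. It read 8.03, 9.58 and 8.65 in wild-type replicates 1 to 3 and 7.89, 9.0 and 11.85 in knockout replicates 1 to 3. A single culture, knockout replicate 3, carried the high value, at 4.21 times the next highest array in raw brightness, 2952 against 701 units. The difference of 0.83 (SE 0.93, 95% confidence interval -1.33 to 2.99) turned to -0.31 without that culture. The SD of Mfap4 within genotypes, 1.55, exceeded that of 99.95% of all genes, that of Eln, 1.03, exceeded 99.6%, and that of Mfap2, 0.73, exceeded 98.6%. Some other matrix genes were also highest on knockout replicate 3, and some were lowest there. Lum, which encodes the collagen-binding proteoglycan lumican, read 9.53 there against 6.86 to 8.36 on the other 5 arrays, and Col3a1, a chain of fibrillar collagen, 9.28 there. Nid2, the basement membrane protein nidogen, had its lowest reading on that array, at 9.08, and so did Col2a1, the cartilage collagen, at 10.21. Of the 57 related genes tested below, 14 were highest and 17 lowest on that array. As that array stood apart from the rest and the share over all genes was not counted, nothing is read from these counts. Whether the make-up of that culture plays a part in the Mfap2 and Mfap4 readings was not tested.

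**Figure D2:**
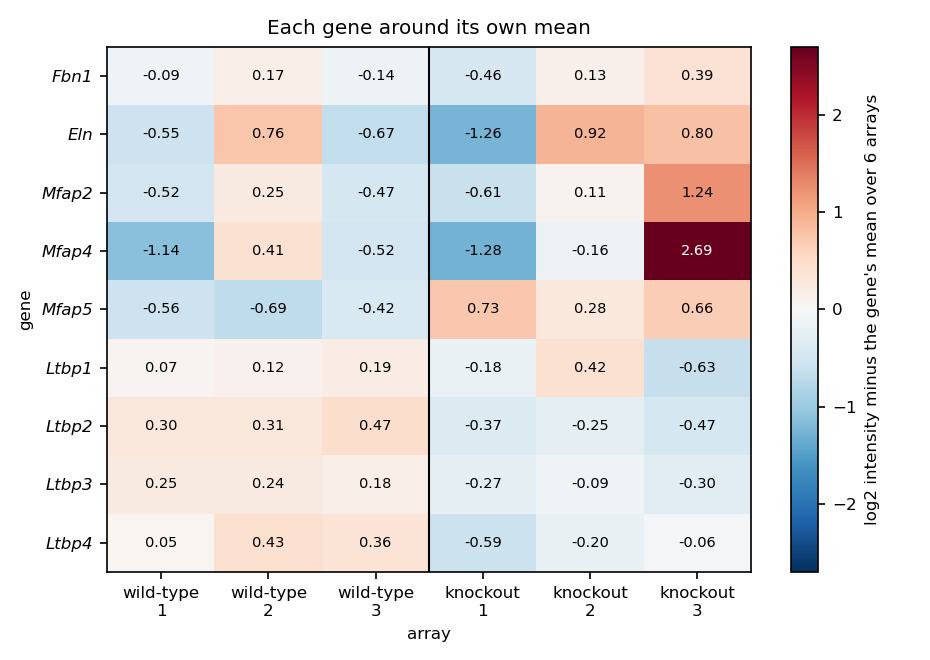
Log2 intensity of each of the 9 measured genes (rows) on each of the 6 arrays (columns) minus that gene's mean over the arrays, with red above and blue below the mean and the value printed in each cell. Mfap4 stands 2.69 above its mean on knockout replicate 3. Mfap5 lies below its mean in wild-type and above it in knockout cultures, and Ltbp2, Ltbp3 and Ltbp4 the other way round.

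The windows around the annotated starts of the 4 latent TGF-beta binding protein genes are shown because 3 of these genes lay lower in all knockout cultures and Ltbp1 did not. Each runs from 250 bases before to 50 after the start, 5′ to 3′ on the gene's strand, from a table of RefSeq start windows on GRCm38.p6, in which 6 of the 10 genes were matched. Eln, Fbn2, Mfap4 and Mfap5 are named only. Where a gene has several starts the most upstream listed is given. For Ltbp4 the gene itself is annotated out to chr7:27339720, upstream of the window given, and any start there is not shown. Ltbp1 lies on the plus strand at chr17:75005279-75005578, Ltbp2 on the minus strand at chr12:84876442-84876741, Ltbp3 on the plus strand at chr19:5740650-5740949 and Ltbp4 on the minus strand at chr7:27337563-27337862. Capitals mark matches on either strand to 5 short motifs, with no overlap between matches here. The GC box was searched as the letters GGGCGG. The CCAAT box was searched by its own letters and the TATA box as TATAAA. The AP-1 site was searched as TGANTCA, where N is any base. The cyclic AMP response element was searched as TGACGTCA.
Ltbp1: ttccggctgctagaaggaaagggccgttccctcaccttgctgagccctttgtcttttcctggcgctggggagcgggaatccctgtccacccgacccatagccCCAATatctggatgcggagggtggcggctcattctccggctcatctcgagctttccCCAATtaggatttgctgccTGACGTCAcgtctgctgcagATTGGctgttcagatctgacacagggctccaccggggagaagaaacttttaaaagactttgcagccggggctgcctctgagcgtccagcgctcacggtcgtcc
Ltbp2: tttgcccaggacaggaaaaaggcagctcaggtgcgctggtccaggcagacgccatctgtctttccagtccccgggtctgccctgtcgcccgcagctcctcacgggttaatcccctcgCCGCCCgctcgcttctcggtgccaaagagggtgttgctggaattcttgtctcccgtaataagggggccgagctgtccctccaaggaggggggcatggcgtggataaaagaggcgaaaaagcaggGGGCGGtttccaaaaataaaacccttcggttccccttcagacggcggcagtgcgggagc
Ltbp3: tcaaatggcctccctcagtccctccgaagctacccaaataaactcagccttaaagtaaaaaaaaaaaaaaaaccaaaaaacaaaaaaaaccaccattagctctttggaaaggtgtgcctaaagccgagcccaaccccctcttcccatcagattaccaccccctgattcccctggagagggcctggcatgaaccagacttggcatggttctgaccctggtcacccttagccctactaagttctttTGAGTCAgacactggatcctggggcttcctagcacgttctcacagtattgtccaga
Ltbp4: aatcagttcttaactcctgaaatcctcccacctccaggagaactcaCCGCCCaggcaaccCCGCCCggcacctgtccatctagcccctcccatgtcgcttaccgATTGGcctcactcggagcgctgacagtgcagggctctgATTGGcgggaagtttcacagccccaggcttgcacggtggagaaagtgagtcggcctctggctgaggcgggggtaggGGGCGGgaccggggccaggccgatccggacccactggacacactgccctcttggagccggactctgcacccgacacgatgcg
No motif was matched in the windows of all 3 genes with lower knockout values. GC boxes were matched 2 times in the Ltbp2 window and 3 times in that of Ltbp4 but not in that of Ltbp3, and 35.7% of all 32851 windows of this length hold one. CCAAT was matched 3 times in Ltbp1 and 2 times in Ltbp4 (37.4% of all windows), the AP-1 letters once in Ltbp3 (7.81%) and the cyclic AMP response element once in Ltbp1 (1.79%). TATAAA was in none of the 4 (13.6% of all windows). The windows of Ltbp1, Ltbp2 and Ltbp4 were rich in G and C, at 58.7%, 61.0% and 64.3%, and that of Ltbp3 was not, at 48.0%, beside a median of 52.7% over all windows. A match describes the letters alone.

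Ltbp1, which covalently binds latent TGF-beta and anchors it to fibronectin and fibrillin, read 9.96, 10.01 and 10.09 in wild-type replicates 1 to 3 and 9.71, 10.31 and 9.26 in knockout replicates 1 to 3. The wild-type cultures were tightly grouped and the knockout cultures scattered on both sides of them. The difference was -0.26 (SE 0.24, 95% confidence interval -0.82 to 0.31), and -0.01 without knockout replicate 3. Of the 7 Ltbp1 probes 2 more were detected on at least 3 arrays, both near background, and gave -0.11 and 0.13.

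Ltbp2, the family member that does not carry latent TGF-beta and competes for fibrillin, gave a dim signal. Its one detected probe read 5.69, 5.70 and 5.87 in wild-type replicates 1 to 3 and 5.02, 5.14 and 4.92 in knockout replicates 1 to 3. Every knockout culture lay below every wild-type culture, and replicates of a genotype differed by at most 0.22. The difference was -0.73 (SE 0.12, 95% confidence interval -1.0 to -0.45), or 1.65-fold lower. In raw brightness the groups also did not overlap, at 138, 114 and 139 units in wild-type replicates 1 to 3 against 108, 102 and 95.6 in knockout replicates 1 to 3, close above the array medians. The size therefore rests on the background correction: it was -0.27 with none and -0.16 in the submitters' normalized values. Both keep the order of the arrays for a probe, so neither could bring an overlap about. No array had the other Ltbp2 probe above background.

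Ltbp3, which also carries latent TGF-beta and is needed for normal bone and teeth, read 10.49, 10.48 and 10.42 in wild-type replicates 1 to 3 and 9.97, 10.16 and 9.94 in knockout replicates 1 to 3. The groups did not overlap, and the 3 wild-type cultures spanned 0.07. The difference was -0.44 (SE 0.11, 95% confidence interval -0.70 to -0.18), or 1.36-fold lower. As a bright probe, at 1920, 1246 and 1648 raw units in wild-type replicates 1 to 3 against 1203, 1050 and 798 in knockout replicates 1 to 3, it depended little on the background step, with -0.42 when none was applied. A second Ltbp3 probe gave -0.70 without overlap. Another, near background, gave 0.22 with overlapping groups.

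Ltbp4, which binds fibulins and guides elastic fibre assembly in lung and vessels, read 7.17, 7.55 and 7.48 in wild-type replicates 1 to 3 and 6.53, 6.92 and 7.06 in knockout replicates 1 to 3. The groups came close without overlap, 0.11 apart between wild-type replicate 1 and knockout replicate 3. The difference was -0.56 (SE 0.17, 95% confidence interval -0.97 to -0.15), or 1.47-fold lower. The other Ltbp4 probes gave -0.36 and -0.39 with overlapping groups. Over Ltbp2, Ltbp3 and Ltbp4 together 6 of the 7 detected probes were below 0 and 4 did not overlap. Probes of a gene read the same RNA and are not replicates.

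**Figure D3:**
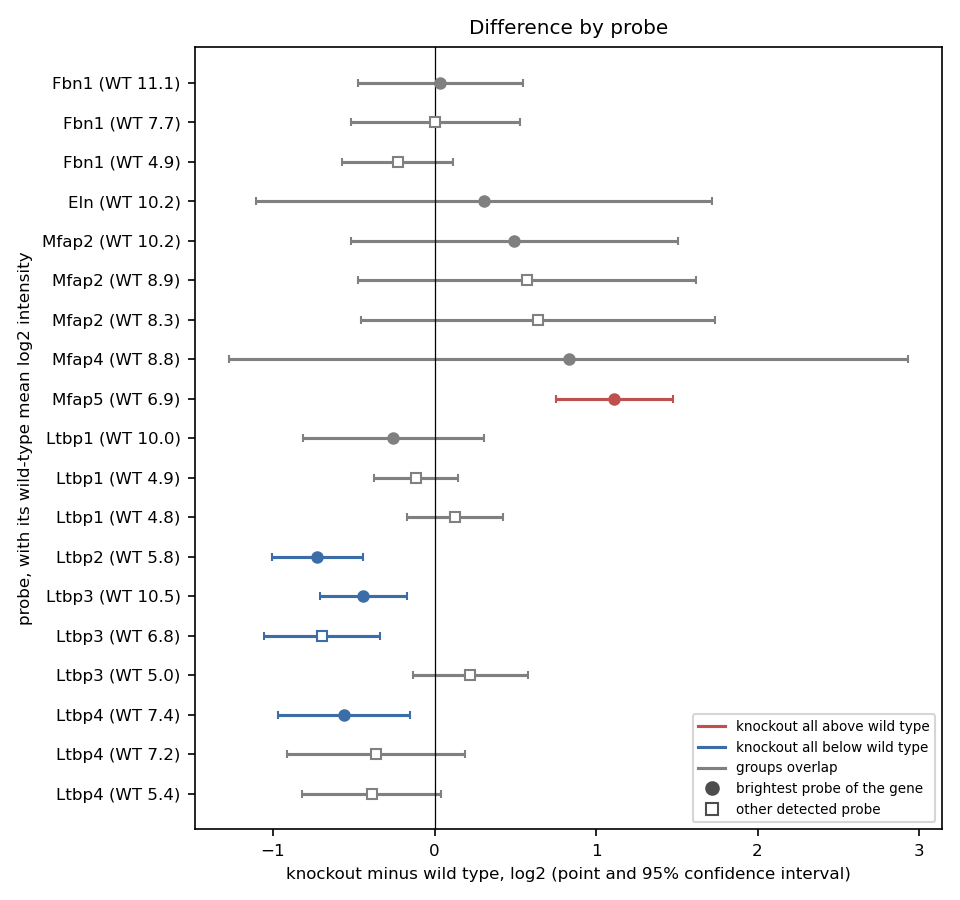
Knockout minus wild-type difference (log2, horizontal axis) of each of the 19 detected probes, with its 95% confidence interval from a limma fit over all detected probes. The number beside each gene is that probe's wild-type mean, filled circles are the brightest probe of a gene, and open squares the others. The intervals of Mfap4, Mfap2 and Eln are the widest, and 2 of 3 Ltbp3 probes and 1 of 3 Ltbp4 probes lie lower without overlap.

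The profile of Ltbp2 over the 6 arrays, each gene centred on its own mean, was nearest among the other 8 genes to Ltbp3. The root-mean-square difference was 0.16, then 0.23 to Ltbp4 and 0.34 to Ltbp1. As Ltbp2, Ltbp3 and Ltbp4 all lay lower in every knockout culture, their nearness restates that difference and is no further evidence. The profile of Mfap5 was nearest to that of Fbn1, at a root-mean-square difference of 0.66, and so had no close match in the set. Over all genes tested, the 5 nearest to Ltbp2 over the 6 arrays were Rif1, Polh, Haus5, Melk and Kif11, at 0.11 to 0.12. The 5 nearest to Mfap5 were Tceal7, Gstp2, Tmem267, Glipr1 and Ctse, at 0.14 to 0.20. As all 10 of these were sought for likeness to a profile chosen on the genotype difference, they differ between the genotypes by construction.

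The other genes of the pathway were compared in 7 lists of microfibril partners, latent TGF-beta handling and TGF-beta signalling, 78 genes in all, of which 57 were tested. None passed an adjusted p of 0.05 by limma in either direction. At an unadjusted p under 0.05 there were 8 of 57, 1 higher and 7 lower, beside 3.9% of all genes higher and 4.08% lower. The groups did not overlap for 10 of the 57, 1 higher and 9 lower, beside 6.7% and 7.83% of all genes. Their median difference was -0.05, beside -0.01 over all genes.

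The fibulins and emilins link microfibrils to elastin, and 6 of the 11 were tested. With a median difference of -0.13, 2 were above 0 and 4 below, and none had an unadjusted p under 0.05. The smallest p was that of Emilin1, an elastic fibre glycoprotein, at -0.35 (SE 0.16, adjusted p = 0.644 by limma). Fbln5, which is needed for elastic fibre formation, was not detected. The lysyl oxidases crosslink elastin and collagen, and 4 of 5 were tested with a median of -0.09. Lox averaged 13.31 ± 0.04 with Asciz and 13.15 ± 0.06 without it (n = 3 for both), and the groups differed by -0.16 without overlap. Loxl1, the family member most tied to elastin, differed by 0.06, Loxl3 by -0.02, and Loxl4 by -0.93 (SE 0.46, adjusted p = 0.652 by limma).

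The ADAMTS and ADAMTS-like proteins bind fibrillin and shape microfibril assembly. Of 10 genes 6 were tested, with a median of 0.01, 3 above and 3 below 0. Thsd4, which encodes an ADAMTS-like protein that promotes fibrillin assembly, stood at 6.76 ± 0.72 with Asciz and 5.22 ± 0.71 without it (n = 3 for both), apart by -1.54 (SE 0.44, adjusted p = 0.487 by limma). Its groups did not overlap, although single cultures ranged widely: 7.40, 6.89 and 5.99 in wild-type replicates 1 to 3 and 5.82, 5.41 and 4.43 in knockout replicates 1 to 3. The last of these was not well above background, which was so on 1 of the 6 arrays, so the size of the difference is limited by background there. Among the matrix partners of fibrillin and the latent complexes 10 of 11 were tested, 5 above and 5 below 0 with a median of -0.02. Fmod, the small proteoglycan fibromodulin, had the smallest p at -0.90 (SE 0.27, adjusted p = 0.530 by limma). Fn1, the fibronectin on which these fibres are assembled, differed by -0.07.

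The genes of latent TGF-beta and its activation gave 13 tested of 18, with a median of 0.07, 8 above and 5 below 0. Of the TGF-beta ligands themselves, Tgfb1 differed by 0.15 (SE 0.19), Tgfb2 by 0.07 (SE 0.18) and Tgfb3 by 0.19 (SE 0.15). Itgb1, a subunit shared by many matrix receptors, had the smallest p at 0.34 (SE 0.13, adjusted p = 0.595 by limma). All 6 tested receptors and Smads were below 0, with a median of -0.20, beside 5587 of all 10700 genes below 0. The smallest p was that of Tgfbr3, the co-receptor betaglycan, at -0.42 (SE 0.16, adjusted p = 0.595 by limma). Of 15 listed genes that TGF-beta is known to induce in fibroblasts 12 were tested, 6 above and 6 below 0 with a median of 0.01, and 0 had an unadjusted p under 0.05. Tagln, the actin-binding protein transgelin, had the smallest p at 0.35 (SE 0.22, adjusted p = 0.715 by limma), and Ccn2, a matricellular growth factor, differed by -0.05.

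**Figure D4:**
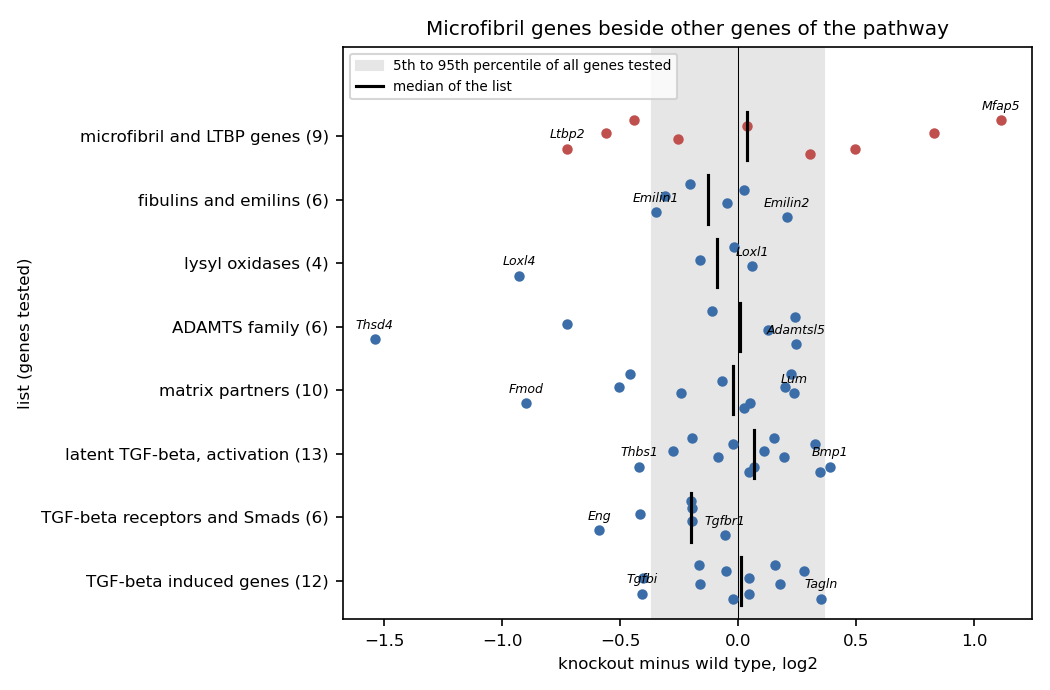
Knockout minus wild-type difference (log2, horizontal axis) of each tested gene in the 9 measured microfibril and LTBP genes (red) and in 7 lists of related genes (blue), with black lines at the medians. The grey band holds the 5th to 95th percentile of all 10700 genes, from -0.36 to 0.36, and the lowest and highest gene of each list are named. Mfap5 is the highest and Thsd4 the lowest of the genes plotted.

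Markers of other cell types were also measured in these cultures. Macrophage markers, 10 of 15 tested, averaged 6.22 to 6.90 per wild-type culture and 5.46 to 5.81 per knockout culture, with C1qa, Tyrobp, Ptprc, Csf1r and Adgre1 not detected. Skeletal muscle markers, 16 of 20 tested, averaged 7.22 to 7.89 and 7.95 to 8.35, with Myod1, Ttn and Ckm not detected. Both lists thus separated the genotypes, as Mfap5 and the 3 lower LTBP genes did. The averages of the vascular smooth muscle list also did not overlap, by a small gap. In that list 4 genes were above 0 and 4 below, and 0 had groups without overlap. The averages of some related lists above did not overlap either. TGF-beta receptors and Smads averaged 9.55 to 9.73 in wild-type and 9.25 to 9.42 in knockout cultures. Lysyl oxidases averaged 10.20 to 10.33 and 9.72 to 10.18. Averages of the remaining related lists overlapped. Cartilage and bone markers, 12 of 18 tested, averaged 6.69 to 7.11 in wild-type and 6.15 to 6.86 in knockout cultures, vascular smooth muscle markers, 8 of 9 tested, 8.92 to 9.23 and 9.24 to 9.35, endothelial markers, 3 of 8 tested, 6.91 to 7.54 and 7.47 to 8.28, and epithelial markers, 6 of 8 tested, 6.45 to 7.12 and 6.55 to 7.18. In such whole-culture RNA fewer cells of a type and less RNA per cell cannot be told apart, and the part of these cells in the readings of Mfap5, Ltbp2, Ltbp3 and Ltbp4 was not tested.

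The direction of Mfap5, Ltbp2, Ltbp3 and Ltbp4 was the same under each of the 17 other ways of processing the data. The groups of these 4 genes also did not overlap under median scaling, nor did those of Ltbp3 and Ltbp4 with the mean of detected probes. Mfap5 and Ltbp2 have 1 detected probe each, so that mean leaves them unchanged. Both other background settings and the submitters' values keep the order of the arrays for a probe, and so could not bring an overlap about. The remaining settings leave these values as they are or leave arrays out without a new normalization, and could not do so either. Mfap5 ranged from 0.62 to 1.25, Ltbp2 from -0.82 to -0.16, Ltbp3 from -0.58 to -0.30 and Ltbp4 from -0.79 to -0.27. Without wild-type replicate 1 and knockout replicate 3 together they stood at 1.06, -0.70, -0.39 and -0.79. The remaining 5 genes each took the opposite sign under at least 1 of these settings. Since the 4 genes were picked out for their separation in the full set of arrays, their staying apart in parts of it is no independent evidence.

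**Figure D5:**
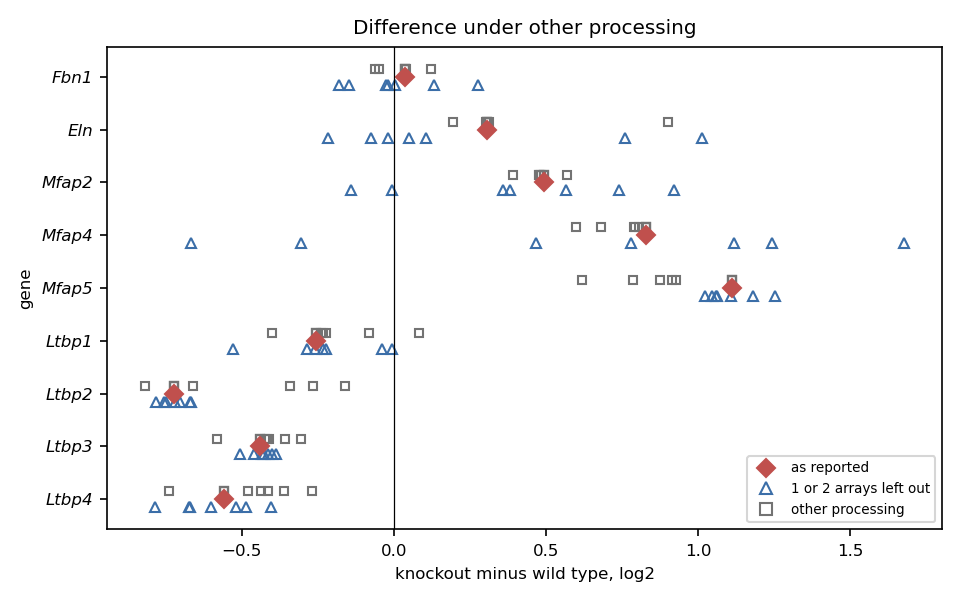
Knockout minus wild-type difference (log2, horizontal axis) of each of the 9 measured genes as reported (red diamonds), with 1 or 2 arrays left out (blue triangles) and under other processing of all 6 arrays (grey squares). Mfap5 stays right of 0 and Ltbp2, Ltbp3 and Ltbp4 left of it, while Fbn1, Eln, Mfap2, Mfap4 and Ltbp1 have points on both sides.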

How the data were processed

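Per the labels, total RNA of the 6 cultures was labelled with biotin and read on 1-colour Illumina MouseWG-6 arrays. The authors deposited mean bead intensity per probe, with bead SD and bead number, exported with GenomeStudio version 1.6.0 without normalization, per the file headers. The deposited detection fraction runs from 0 to 1, and 1 minus it was used as the detection p. The authors' normalized table, which the submitters' processing notes credit to lumi, holds a score whose log base is not stated; it served as an alternative. A deposited copy of it was not used, nor were 24 of the 48 per-array columns.

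Background correction and quantile normalization were done with neqc (offset 16) of limma 3.58.1 in R 4.3.3. A probe was kept if its detection p was under 0.05 on 3 or more arrays. Names came from a gene table of GRCm38.p6, which named 80.9% of probes, and the brightest detected probe stood for a gene, giving 10700 genes. They were tested with lmFit and eBayes, two-sided, as knockout minus wild type, and p-values were adjusted by Benjamini-Hochberg. On simulated data, 5 draws of 10700 genes with 200 shifted by 2 on the log2 scale, 184 to 190 of these were recovered. False calls numbered 4 to 8 per draw. That shift is larger than any member difference, and recovery at the sizes of the members was not tested. SE and confidence intervals are moderated. For the brightest probes of the 9 measured genes, 18 to 63 beads per array gave a technical SE of 2.58% to 7.57% of the raw intensity, background included. The number of arrays limits the precision. For the dim Ltbp2 probe bead error limits it too. Its closest raw readings between genotypes were 114.4 (bead SE 3.77) in wild-type replicate 2 and 107.7 (bead SE 3.56) in knockout replicate 1.

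Genes named are all members with their probes, the gene of smallest p per list or up to 3 past the threshold, the TGF-beta ligands and lysyl oxidases, the 5 genes nearest in profile to Mfap5 and to Ltbp2, and Atmin and Dynll1. Others, such as Fn1, Ccn2, Lum, Col3a1, Nid2, Col2a1 and genes not detected, were named after their values were seen. Members and lists were chosen with earlier results of these data known. Alternatives covered background, normalization, probe filter, probe rule, variance model, replicate block and arrays left out. The files and labels used here name no slide or scan date.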

Additional observations from a re-analysis of the deposited data

How the results depend on the processing

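The settings were no background correction, normexp with an offset of 50, arrays scaled to a common median, the submitters' normalized values, no probe filter, detection on all 6 arrays, the mean of detected probes, another variance model, array weights, a replicate block, leaving out each array, and wild-type replicate 1 and knockout replicate 3 left out together. Under each, 0 of the measured members and 0 of the pathway list genes passed the threshold by limma. At an unadjusted p under 0.05 there were 4 members, beside 4.5% to 13.8% of all genes. The exceptions were 5 without knockout replicate 2 (7.99% of all genes) and 6 without knockout replicate 1 (10.4%). As the set was chosen on this contrast in the same arrays, nothing is read from these counts. Of all genes 5 passed as reported, 3 with normexp, 2 without background correction, 3 under median scaling, 2 in the submitters' values, 3 without a filter and 9 with array weights, none of them a member; leaving out 1 array gave 1 to 4. Atmin itself was not among the genes past the threshold under 5 of the 17 settings: the mean of detected probes, the replicate block, and without wild-type replicate 1, 2 or 3. Members whose groups did not overlap numbered 4 as reported, 4 to 5 with 1 array left out, and 4 under the rest. Apart from median scaling and the mean of detected probes, these settings could not bring an overlap about in the 4 reported. Leaving out arrays raised the share of all genes without overlap to between 20.3% and 35.3%.

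With a block for the replicate number 2 genes passed in place of 5, and no member's call changed. Same-numbered cultures deviated from their group means with correlations across genes of 0.23, -0.18 and -0.20, so the numbers were not taken to pair cultures. Median scaling moved the median of all genes to -0.14. Beside that shift Mfap5 stood at 0.91, Ltbp2 at -0.82, Ltbp3 at -0.58 and Ltbp4 at -0.74, and Fbn1 turned to -0.05. Without background correction Mfap5 was 0.79 and Ltbp4 -0.36. In the submitters' values Mfap5 was 0.62 and Ltbp4 -0.27. With the mean of detected probes Ltbp3 was -0.30. Without knockout replicate 3 Fbn1 turned to -0.15, Eln to -0.02, Mfap2 to -0.01 and Mfap4 to -0.31. Array weights turned Ltbp1 to 0.08. The cause of these changes was not tested. Signal over background limits Ltbp2, the dim probes of Ltbp1 and Fbn1, and Fbn2, whose level cannot be given.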

Other observations

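Mfap4 was high in a single culture, and the genes with the most similar profile over the 6 arrays were looked up after its values were seen. The 5 nearest, by root-mean-square difference of centred log2 values, were Ifi27 at 0.41, Rgcc at 0.44, Col26a1 at 0.47, Lum at 0.49 and Tril at 0.52. Col26a1 encodes a collagen chain and Lum lumican, while Ifi27 is an interferon-inducible gene. Col26a1 read 4.78, 5.71 and 4.74 in wild-type replicates 1 to 3 and 4.99, 5.18 and 7.54 in knockout replicates 1 to 3. Dcn, the proteoglycan decorin, read 11.76 on knockout replicate 3 against at most 10.99 on the wild-type arrays, and Col1a2 11.07 against at most 10.48. Mfap2 was the member nearest to Mfap4, at a root-mean-square difference of 0.71. Thsd4 (4.43) and Loxl4 (7.84) had their lowest readings on knockout replicate 3, as did Ltbp1, Ltbp2 (4.92) and Ltbp3 (9.94).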
